A study of Mus musculus with 12 samples.

Results

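The 8 genes described here belong to the CXC chemokine family: Cxcl1, Cxcl2, Cxcl3, Ppbp, Cxcl9, Cxcl10, Cxcl11 and Cxcl16. They were taken by name from the deposited count tables, each as its 1 listed RefSeq transcript, and are 8 of 24445 genes measured. The series addresses the role of the histone methyltransferase DOT1L in macrophages. Messenger RNA was sequenced in 12 libraries of bone marrow-derived macrophages, which were grown for 7 to 8 days from marrow of C57BL/6 mice with L929-conditioned medium as the source of the growth factor M-CSF. The 4 groups of 3 biological replicates were knockout (KO) cells given 10 ng/mL of Escherichia coli lipopolysaccharide (LPS) for 3 hours, wild-type (WT) cells given the same LPS, untreated KO cells and untreated WT cells. KO stands for a DOT1L knockout that the labels restrict to myeloid cells and tie to Lyz2, a gene of myeloid cells, so cells without Lyz2 activity may keep DOT1L. The labels give neither the deleted part of the gene, nor the alleles that the WT mice carried, nor the age of the mice.

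CXC chemokines are small secreted proteins that draw leukocytes along a gradient, and macrophages are among their main sources once a Toll-like receptor has met a bacterial product. Cxcl1, Cxcl2 and Cxcl3 act on the receptor CXCR2 and recruit neutrophils. Ppbp codes for platelet basic protein, a granule protein of platelets whose cleaved form also acts on CXCR2. Cxcl9, Cxcl10 and Cxcl11 act on CXCR3 and draw activated T cells and natural killer cells, and their transcription is known to answer to interferons as well as to NF-kB. Cxcl16 is made as a membrane protein that binds CXCR6 and is released by the protease ADAM10.

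All but 1 of the genes lie on chromosome 5 in groups of 4 and 3 (mm10, the build of the submitters' processing notes; positions from a GRCm38.p6 RefSeq table). The first group runs from Ppbp (NM_023785, 90768518 to 90770063) over Cxcl3 (NM_203320, 90786101 to 90788093) and Cxcl1 (NM_008176, 90891245 to 90893121) to Cxcl2 (NM_009140, 90903899 to 90905938). The second group holds Cxcl9 (NM_008599, 92321331 to 92328079), Cxcl10 (NM_021274, 92346638 to 92348889) and Cxcl11 (NR_038116, 92359544 to 92363296). Cxcl16 (NM_023158) lies on chromosome 11, from 70454389 to 70459984. A second transcript in the tables that the references do not name, NM_019494, had counts within 4 reads of those of Cxcl11 in every library and was not used. RefSeq lists Cxcl11 as a transcribed pseudogene in its reference, which is C57BL/6, the strain of these mice. All Cxcl11 values below therefore describe RNA and do not stand for a working ligand.

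The stretches of promoter that hold matches to known inducible elements are shown first. The longest run shared by the Cxcl1, Cxcl2 and Cxcl3 promoters was 11 bases, GGGAATTTCCC, and its first 10 were counted in all promoters. The sequences are from RefSeq, GRCm38.p6, 5′ to 3′ on the strand of the gene, with matches on either strand in capitals. In the CXCR2 ligand genes the capitals mark the NF-kB (kB) pattern GGGNNNNTCC, and overlapping matches run together.
Cxcl1, chr5:90891155-90891214: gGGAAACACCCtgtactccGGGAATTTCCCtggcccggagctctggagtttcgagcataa
Cxcl2, chr5:90903789-90903848: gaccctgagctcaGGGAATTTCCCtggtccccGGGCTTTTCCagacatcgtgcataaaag
Cxcl3, chr5:90786011-90786070: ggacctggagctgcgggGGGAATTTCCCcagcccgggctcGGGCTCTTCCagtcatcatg
Ppbp, chr5:90768428-90768487: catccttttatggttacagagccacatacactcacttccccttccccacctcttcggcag
These 10 bases, GGGAATTTCC, stood at positions -71 to -62 from the transcription start of Cxcl1, -97 to -88 in Cxcl2 and -73 to -64 in Cxcl3. Of 32851 promoter entries, 28 (0.0852%) held it on either strand in the 250 bases before the start, whereas 16.5% held the looser pattern. Since the run was taken from Cxcl1, Cxcl2 and Cxcl3, its presence in them was fixed in advance, and they are among the 28. An exact run of 10 bases matches fewer entries than a pattern with free positions, so its low share is no finding about these genes. In Ppbp no match to the looser pattern lay in those 250 bases, and part of its window is shown for contrast. Such matches describe letters and do not show that a factor binds.

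Among the CXCR3 ligand genes, Cxcl10 held both the kB pattern and the core of an interferon-stimulated response element, GAAANNGAAA, which is capitalised first in this sequence, followed by kB matches.
Cxcl10, chr5:92348970-92349109, minus strand: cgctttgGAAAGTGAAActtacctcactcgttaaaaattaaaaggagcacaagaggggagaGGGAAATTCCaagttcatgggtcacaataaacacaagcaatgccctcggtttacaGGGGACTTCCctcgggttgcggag
The interferon core lay at -213 to -204 and the kB matches at -159 to -150 and -104 to -95. The interferon core was present in 2.98% of all promoter entries. The Cxcl9 window held no match to any of these patterns, and the table had no entry for Cxcl11 or Cxcl16.

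The messages also differ at their ends. AU-rich stretches in the 3′ untranslated region are known to mark cytokine mRNAs for rapid decay, and the heptamer TATTTAT was therefore counted in the first 500 bases of that region. Cxcl1 and Cxcl2 each held 6 copies, overlapping ones counted, and Cxcl3 held 1. The other 5 genes held 0, and 11.8% of 14292 genes held at least 1. The sites below are from the GENCODE transcripts, with the heptamers in capitals.
Cxcl1: agggtccTATTTATTTATgTATTTATTTAT
Cxcl2: actTATTTATTTATctatgTATTTATTTAT
Cxcl3: aactatacaagattatcagttgtTATTTAT

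Libraries held 8.64 to 13.54 M (1e6) counts, so that 3 counts equal 0.186 to 0.444 counts per 1e6 counts (CPM, on edgeR's TMM scale as are all levels below). Dot1l mRNA did not pass the test between genotypes: it stood at 65.0 to 73.1 CPM in KO cells with LPS, 60.8 to 69.4 CPM in WT cells with LPS, 85.9 to 97.7 CPM in untreated KO cells and 82.4 to 112 CPM in untreated WT cells. The log2 fold change, KO over WT, was 0.07 ± 0.09 with LPS and -0.15 ± 0.13 untreated (SE, n = 3 each; edgeR adjusted p = 0.754 and 0.902). Whether the deleted part lies in the counted transcript is not given, so this level does not check the labels. WT replicate 1 was farthest from its group mates in both conditions, at a root mean square log2 difference of 0.552 with LPS and 0.559 untreated, against 0.326 to 0.515 in the other 10 libraries. The 4 libraries numbered 2 carried the Y-linked gene Ddx3y at 94.4 to 107 CPM and Xist, expressed from the inactive X chromosome, at 0.203 to 0.643 CPM, whereas the other 8 had Ddx3y at 0 and Xist at 538 to 821 CPM. Where leaving out WT replicate 1 or the libraries numbered 2 changes a call, both values are given. All 7 macrophage markers looked up were detected, with summed levels of 4613 to 7860 CPM, while 8 lymphocyte markers summed to at most 0.774 CPM and 4 erythroid markers to at most 0.203 CPM. In these bulk libraries, fewer cells of a type and less RNA per cell cannot be told apart.

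LPS turned a family of low messages into one dominated by Cxcl10. The authors' RPKM, which divides by transcript length, allows genes to be set beside each other. Summed over the 8 genes, RPKM reached 6425 to 6701 in KO cells and 5978 to 6174 in WT cells with LPS, against 33.9 to 47.2 in untreated KO cells and 28.2 to 34.2 in untreated WT cells. Cxcl10 made up 90.4% to 92.9% of that sum in KO cells and 90.8% to 92.0% in WT cells with LPS. By mean RPKM it ranked 1 of all genes in KO cells and 2 in WT cells with LPS. The family took 0.844% to 0.870% of all counts in KO cells and 0.784% to 0.834% in WT cells with LPS, against at most 0.00983% in any untreated library.

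Below Cxcl10, the order with LPS was similar in both genotypes. Mean RPKM with LPS was 192 in KO cells and 162 in WT cells for Cxcl9, and 184 in KO cells and 190 in WT cells for Cxcl2. These 2 genes overlapped between libraries in both genotypes. Cxcl16 followed at 82.5 in KO cells and 73.1 in WT cells. Cxcl11, at 48.6 in KO cells and 29.6 in WT cells, and Cxcl1, at 40.3 in KO cells and 46.9 in WT cells, overlapped with each other and stood in opposite order in the 2 genotypes. Cxcl3 came next at 19.4 in KO cells, where its highest library reached the lowest of Cxcl1, and 9.98 in WT cells, and Ppbp was lowest at 1.92 in KO cells and 0.448 in WT cells.

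Without LPS the order was another one. Cxcl16 led at a mean RPKM of 19.6 in KO cells and 14.9 in WT cells, and made up 46.7% to 55.9% of the family sum in KO cells and 37.9% to 63.7% in WT cells. Cxcl2, at 8.07 in KO cells and 9.31 in WT cells, overlapped with Cxcl16 in WT cells and with Cxcl10 in KO cells (6.53 to 8.40 for Cxcl10) and lay above it in all WT libraries (4.30 to 5.38 for Cxcl10). Ppbp stood at 2.37 in KO cells and 0.852 in WT cells, overlapping with Cxcl1 in WT cells, and each of the other 4 genes averaged under 1 RPKM in both genotypes. Ppbp was thus in the upper part of the family without LPS and last with it.

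**Figure D1:**
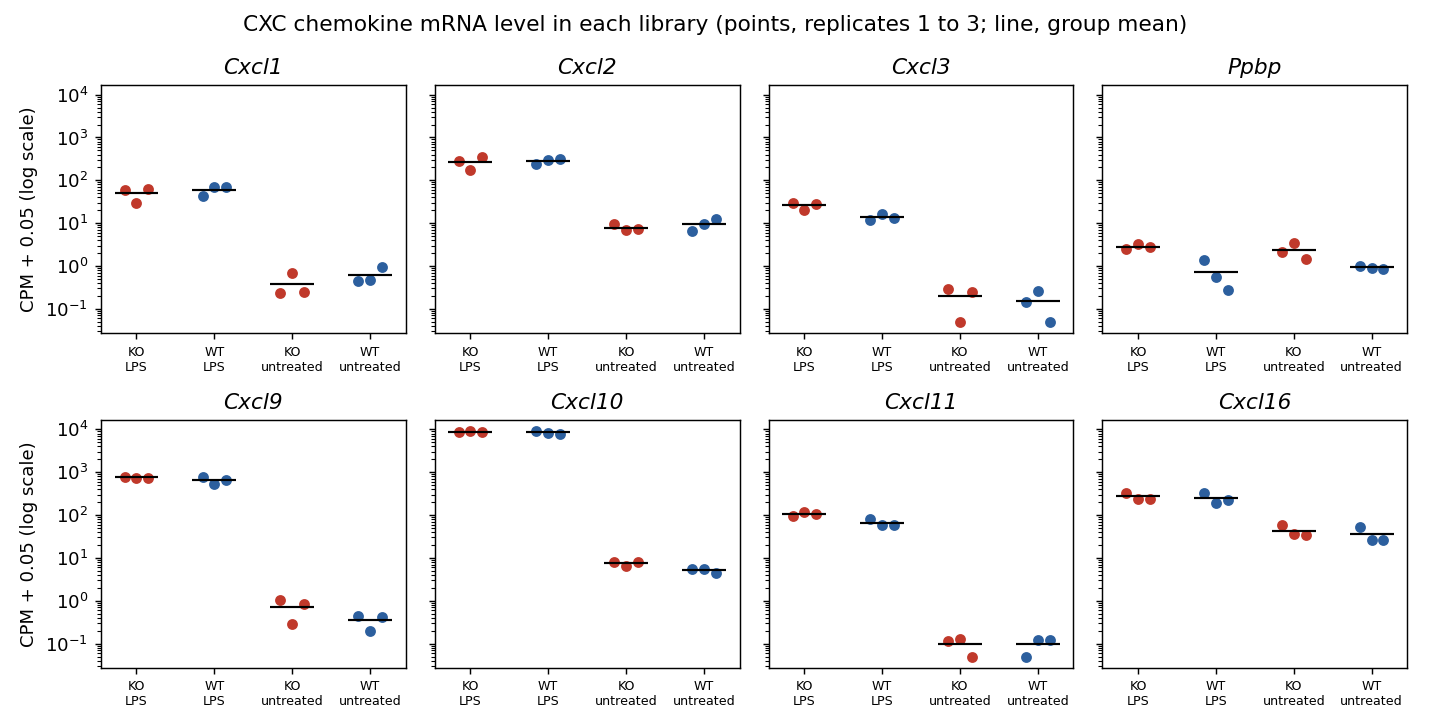
Level of each chemokine in each library, in CPM plus 0.05 on a log axis, with KO libraries in red, WT libraries in blue and a line at the group mean. All genes but Ppbp lie higher with LPS than without in both genotypes, and the KO and WT points lie fully apart with LPS in Cxcl3, Cxcl11 and Ppbp.

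The response to LPS was tested in each genotype. Of the 8 chemokines, 7 rose with LPS in KO cells and the same 7 in WT cells, all but Ppbp, against 30.3% of 11984 genes called higher in KO cells and 27.6% in WT cells (edgeR quasi-likelihood F test, adjusted p under 0.05). Cxcl1, Cxcl3, Cxcl9 and Cxcl11 were too low untreated for the filter and entered this test through their LPS libraries. For them the filter favoured a rise, whereas Cxcl2, Cxcl10 and Cxcl16 also passed it in the untreated libraries. The median log2 fold change over the 8 genes was 7.30 in KO cells and 6.82 in WT cells, against -0.02 and -0.05 over all genes. Scaled by the deposited RPKM, the median over all genes was -0.59 in KO cells and -0.57 in WT cells. That scaling called 1687 genes higher and 7389 lower in KO cells, against 3633 and 3700 on the TMM scale, and 1667 and 7369 in WT cells, against 3309 and 3567. The 7 chemokines rose on either scale.

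Cxcl1, which codes for the neutrophil attractant KC, had 60.2, 29.2 and 63.7 CPM in KO cells with LPS, against 0.186, 0.620 and 0.195 CPM in untreated KO cells. In WT cells it had 43.2, 69.7 and 69.5 CPM with LPS, against 0.387, 0.425 and 0.891 CPM untreated. KO replicate 2 was the lowest LPS library and had the highest untreated level of the KO cells. LPS raised Cxcl1 by 7.29 ± 0.45 in KO cells and 6.70 ± 0.42 in WT cells on the log2 scale (SE, n = 3 each; edgeR adjusted p = 6.03e-09 and 8.68e-09).

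Cxcl2, which codes for MIP-2, had 283, 172 and 343 CPM in KO cells with LPS, against 9.31, 6.82 and 7.41 CPM in untreated KO cells. In WT cells it had 237, 291 and 319 CPM with LPS, against 6.58, 9.57 and 12.3 CPM untreated. Among the CXCR2 ligands it was the only one with over 50 reads in every untreated library. Its log2 fold change was 5.08 ± 0.27 in KO cells and 4.89 ± 0.27 in WT cells (edgeR adjusted p = 1.5e-09 and 2.39e-09).

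Cxcl3 had 344, 223 and 308 reads in KO cells with LPS, against 4, 0 and 3 reads in untreated KO cells. WT cells had 82, 164 and 115 reads with LPS, against 1, 3 and 0 reads untreated. Without LPS it was thus near the limit of detection in both genotypes. The pooled CPM ratio, LPS over untreated, was 169 in KO cells (exact binomial 95% interval 81.5 to 420) and 135 in WT cells (52.1 to 497), and these intervals cover counting error only. The fit gave 7.31 ± 0.38 in KO cells and 6.93 ± 0.44 in WT cells on the log2 scale (edgeR adjusted p = 8.72e-10 and 9.17e-09). With so few untreated reads these ± values are too narrow, as the wider pooled intervals show.

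The CXCR3 ligands had larger fold changes. Cxcl9 had 784, 735 and 743 CPM in KO cells with LPS, against 0.993, 0.232 and 0.780 CPM in untreated KO cells. In WT cells Cxcl9 had 777, 531 and 652 CPM with LPS, against 0.387, 0.142 and 0.371 CPM untreated. The LPS libraries of both genotypes overlap, while the untreated ones rest on 31 reads in KO cells and 11 reads in WT cells. As a log2 fold change the response was 10.07 ± 0.26 in KO cells and 11.09 ± 0.29 in WT cells (edgeR adjusted p = 1.36e-12 and 1.7e-12), ranks 12 and 4 of 11984 genes. In WT cells the pooled CPM ratio was 2198, with an exact binomial 95% interval of 1228 to 4404. The ± value in WT cells is narrower than this counting error allows.

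Cxcl10, which codes for IP-10, had 8516, 9124 and 8814 CPM in KO cells with LPS, against 7.94, 6.59 and 8.19 CPM in untreated KO cells. In WT cells it had 9183, 8294 and 7949 CPM with LPS, against 5.32, 5.46 and 4.38 CPM untreated. With LPS the genotypes overlap, and without it every KO library lies above every WT library. As a log2 fold change it was 10.19 ± 0.14 in KO cells and 10.72 ± 0.15 in WT cells (edgeR adjusted p = 8.04e-15 and 6.12e-15), ranks 11 and 8 of 11984 genes.

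Cxcl11 had 1064, 1269 and 1130 reads in KO cells with LPS, against 1, 1 and 0 reads in untreated KO cells. WT cells had 554, 572 and 515 reads with LPS, against 0, 1 and 1 reads untreated. The pooled CPM ratio was 2335 in KO cells (646 to 19286) and 1224 in WT cells (338 to 10118), with intervals that overlap. The fitted log2 fold change, 10.89 ± 0.31 in KO cells and 10.04 ± 0.33 in WT cells, depends on how 2 reads a group are treated (edgeR adjusted p = 3.18e-12 and 1.06e-11). The values after ± come from the F statistic and are too narrow for 2 untreated reads a group. The pooled intervals, which cover counting error only, are already wider.

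Cxcl16 changed least among the 7. It had 333, 240 and 243 CPM in KO cells with LPS, against 57.8, 36.5 and 35.0 CPM in untreated KO cells. In WT cells it had 333, 195 and 221 CPM with LPS, against 53.7, 26.1 and 25.8 CPM untreated. No LPS library came near an untreated one, and replicate 1 was the highest in each group. On the log2 scale LPS raised it by 2.66 ± 0.30 in KO cells and 2.85 ± 0.31 in WT cells (edgeR adjusted p = 3.73e-06 and 2.62e-06).

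Ppbp did not pass the test for LPS. It had 28, 35 and 29 reads in KO cells with LPS, against 34, 44 and 22 reads in untreated KO cells. WT cells had 9, 5 and 2 reads with LPS, against 10, 12 and 11 untreated. The log2 fold change was 0.30 ± 0.33 in KO cells and -0.44 ± 0.55 in WT cells (edgeR adjusted p = 0.461 and 0.522). Scaled by the deposited RPKM it was -0.22 in KO cells and -1.0 in WT cells, and the change in WT cells passed (limma adjusted p = 0.0402).

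**Figure D2:**
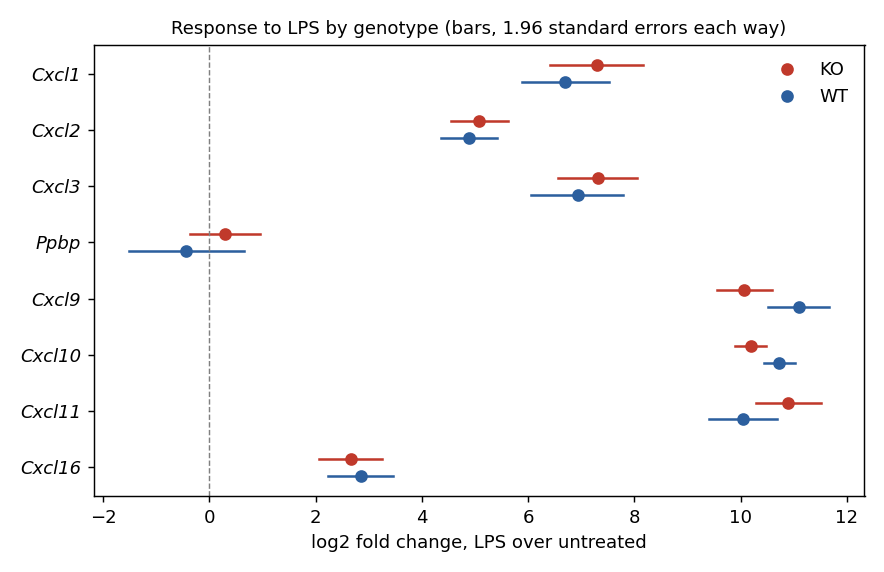
Response of each chemokine to LPS as a log2 fold change, LPS over untreated, in KO cells (red, upper point) and WT cells (blue, lower point), with bars of 1.96 standard errors each way. Cxcl9, Cxcl10 and Cxcl11 stand between 10.04 and 11.09, Cxcl16 below 3 and Ppbp at 0.30 in KO cells and -0.44 in WT cells. The bars of Cxcl3, of Cxcl11 and of Cxcl9 in WT cells are too narrow for their few untreated reads.

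The difference between the responses was tested as an interaction of genotype and LPS, and 0 of the 8 chemokines passed, as 0 of all 11984 genes did (0.00%; edgeR, with 288 genes at an unadjusted p under 0.05 and 0 calls by DESeq2). The median over the 8 genes was 0.29 on the log2 scale, against 0.02 over all genes. Cxcl10 had the largest difference for its error, -0.54 ± 0.16, with an unadjusted p of 0.00456 and an adjusted p of 1 in edgeR (0.0991 to 1 over 23 other settings). Between same-numbered libraries, which the labels do not state to be pairs, its LPS response was 10.05, 10.41 and 10.05 in KO cells. In WT cells it was 10.73, 10.54 and 10.79. The share of all genes that separate in this way is not given, so no result is drawn from it. With the levels close to each other under LPS, the smaller response goes with the higher untreated level in KO cells. For Cxcl9 the difference was -1.02 ± 0.57, and for Cxcl11 0.85 ± 1.39, the wide error coming with 2 reads in each untreated group.

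KO and WT cells were then compared after LPS. Of the 8 chemokines, 2 were called higher in KO cells, Cxcl3 and Ppbp, and 0 lower, against 1.13% of 11264 genes called in either direction, 113 higher and 14 lower (edgeR quasi-likelihood F test). Ppbp passed the filter on low counts through its KO libraries, where it is high. Its direction was thus partly set by the filter, and its call adds little to the count. The median log2 fold change over the 8 genes, KO over WT, was 0.16, against -0.01 over all genes. The 3 KO and 3 WT libraries did not overlap for Cxcl3, Cxcl11 and Ppbp, all higher in KO cells, against 10.6% of genes apart in that direction.

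Cxcl3 had 30.3, 20.5 and 28.7 CPM in KO cells with LPS, against 12.1, 16.6 and 13.1 CPM in WT cells with LPS. The lowest KO library lies above the highest WT library. The log2 fold change was 0.91 ± 0.17, a fold of 1.88 (SE, n = 3 each; edgeR adjusted p = 0.0385). The call is close to the threshold: the adjusted p lay between 0.000478 and 0.191 over 17 other settings and missed 0.05 in 8 of them, among them those without KO replicate 1 (0.139), KO replicate 3 (0.185) or WT replicate 3 (0.191). Without the libraries numbered 2 it was 1.21 (adjusted p = 0.0286).

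Ppbp had 2.47, 3.22 and 2.71 CPM in KO cells with LPS, against 1.33, 0.507 and 0.228 CPM in WT cells with LPS. All KO libraries lie above all WT libraries, which differ among themselves more than the KO libraries do. On the log2 scale the difference was 2.11 ± 0.43 (edgeR adjusted p = 0.0472), rank 13 of 11264 genes from the top. Summed over libraries there were 92 reads in KO cells and 16 in WT cells, a pooled CPM ratio of 4.43 (exact binomial 95% interval 2.59 to 8.08, counting error only). The adjusted p missed 0.05 in 8 of 17 other settings, with a highest value of 0.271, and in 5 of 6 fits that left out 1 library: all except the one without WT replicate 1, where the log2 fold change was 2.86. Without the libraries numbered 2 it was 1.83 (adjusted p = 0.271). The fit without WT replicate 1 called 359 genes higher and 186 lower, against 113 and 14 in the main fit.

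Since Ppbp is known as a gene of platelets and their precursors, markers of those cells were set beside it. Without Pf4 and Itgb3, both of which macrophages also make, 9 such markers summed to 1.49 to 1.75 CPM in KO cells with LPS and to 1.14 to 1.78 CPM in WT cells with LPS, and Gp6 was at 0 in all libraries. Untreated, they summed to 3.79 to 5.65 CPM in KO cells and 4.39 to 5.61 CPM in WT cells. These ranges overlap between genotypes in both conditions. With Pf4 and Itgb3 kept, the 11 markers did not overlap in either. They summed to 200 to 275 CPM in KO cells and 157 to 172 CPM in WT cells with LPS. Untreated, the 11 summed to 196 to 210 CPM in KO cells and 144 to 178 CPM in WT cells. Among the 9, Gp1bb had 14 reads in KO cells and 2 in WT cells with LPS, whereas Itga2b had 4 and 8. Pf4, the platelet factor gene that neighbours Ppbp, had 188, 251 and 175 CPM in KO cells with LPS, against 134, 142 and 135 CPM in WT cells with LPS. Its log2 fold change was 0.57 ± 0.12 (edgeR adjusted p = 0.0519), and 0.59 ± 0.09 untreated (adjusted p = 0.156), with no overlap between genotypes in either condition. Over all genes, 10.6% were apart in that direction with LPS and 6.37% untreated.

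Cxcl11 had 93.9, 117 and 105 CPM in KO cells with LPS, against 82.0, 58.0 and 58.7 CPM in WT cells with LPS. The groups are apart, with WT replicate 1 nearest to the KO cells. The log2 fold change was 0.67 ± 0.14, with an edgeR adjusted p of 0.0507 that just misses the threshold. Over 17 other settings it ranged from 4.14e-05 to 0.285 and passed in 7, and without WT replicate 1 the log2 fold change was 0.85 with the lowest of these p. Without the libraries numbered 2 it was 0.50, with the highest. The fit without WT replicate 1 called 359 genes higher and 186 lower.

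The other 5 chemokines did not pass. Cxcl9 differed by 0.20 ± 0.13 on the log2 scale (edgeR adjusted p = 0.517), and by 0.35 without WT replicate 1 (adjusted p = 0.028). That fit called 359 genes higher and 186 lower, so passing there was shared by many genes. Cxcl10 differed by 0.05 ± 0.08, with an interval of -0.11 to 0.21 (1.96 standard errors each way), the narrowest of the family. Cxcl16 differed by 0.12 ± 0.20, with an interval of -0.28 to 0.51. For Cxcl1 the difference was -0.26 ± 0.28 and for Cxcl2 -0.09 ± 0.23, with intervals of -0.82 to 0.29 and -0.53 to 0.36. In both of these genes KO replicate 2 was the lowest of the 6 libraries, and without it the differences were 0.02 for Cxcl1 and 0.15 for Cxcl2.

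The summed level of 6 monocyte markers also differed between these groups, mainly through Vcan. The sums were 270 to 278 CPM in KO cells with LPS and 178 to 233 CPM in WT cells with LPS. Vcan alone had 229 to 243 CPM in KO cells and 151 to 187 CPM in WT cells. Of the 6 markers only Vcan was called higher in KO cells, against 1.13% of genes called in either direction. Of the 6 log2 fold changes 5 were above 0. Mean Ccr2 was 12.7 CPM in KO cells and 12.3 CPM in WT cells, and mean Ly6c2 1.03 and 1.10 CPM. Untreated, the 6 markers summed to 44.0 to 61.7 CPM in KO cells and 28.7 to 64.4 CPM in WT cells. Neutrophil markers overlapped between genotypes, at 25.3 to 39.6 CPM in KO cells and 20.0 to 48.3 CPM in WT cells with LPS. Their part in the chemokine differences was not tested.

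**Figure D3:**
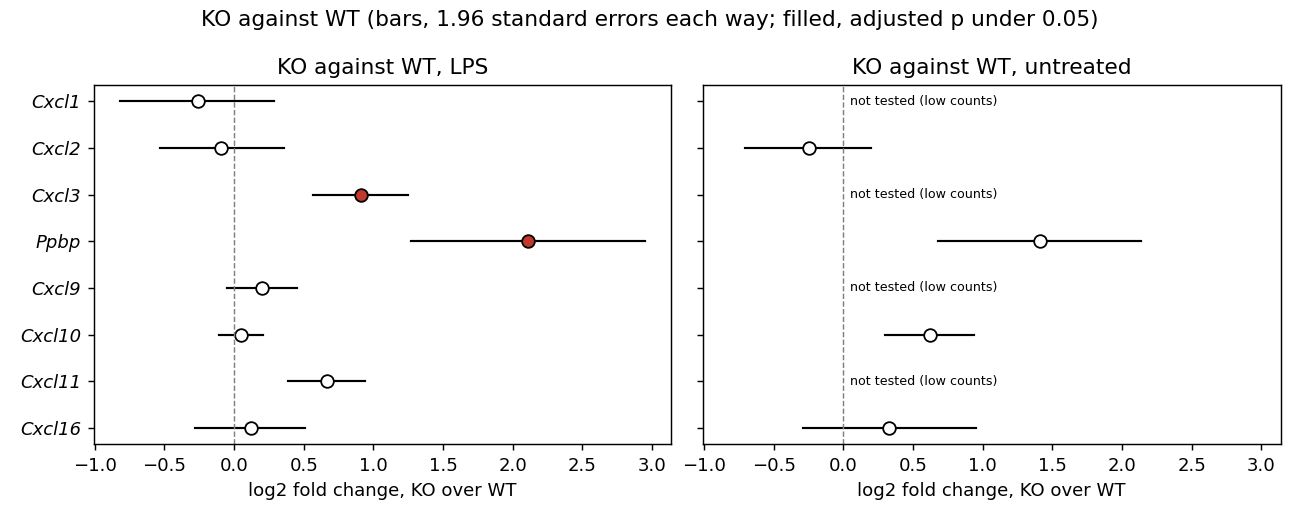
Difference between KO and WT cells for each chemokine as a log2 fold change, KO over WT, with LPS (left) and untreated (right), with bars of 1.96 standard errors each way and filled points where the edgeR adjusted p is under 0.05. Cxcl3 at 0.91 and Ppbp at 2.11 are filled with LPS, and no point is filled untreated.

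Within the CXCR2 ligands, Cxcl3 stood apart from Cxcl1 and Cxcl2 in the comparison of genotypes. Reads were therefore set against each other inside each library, where scaling drops out; these ratios were chosen after the levels had been seen and carry no test. With LPS there were 1.98, 1.43 and 2.22 Cxcl1 reads per Cxcl3 read in KO cells, against 3.56, 4.20 and 5.30 in WT cells. Likewise there were 9.33, 8.38 and 11.9 Cxcl2 reads per Cxcl3 read in KO cells, against 19.5, 17.5 and 24.3 in WT cells. The groups do not overlap in either ratio, although KO replicate 2 was low in all of Cxcl1, Cxcl2 and Cxcl3.

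A like separation was seen among the CXCR3 ligands, with 90.7, 78.2 and 83.6 Cxcl10 reads per Cxcl11 read in KO cells with LPS, against 112, 143 and 135 in WT cells with LPS. Of the 28 pairs among the 8 genes, 12 ratios did not overlap between genotypes, and 6 of the 21 pairs without Ppbp, against 21.1% of pairs over all genes tested with a read in each LPS library. Ratios that share a gene are not independent of each other. Each of those 6 holds Cxcl3 or Cxcl11, whose levels were already apart, so these ratios restate the differences in level. Their share is close to that over all genes and is no separate result about the family. The ratio of Cxcl1 to Cxcl2 overlapped, at 0.213, 0.170 and 0.186 in KO cells with LPS, against 0.183, 0.239 and 0.218 in WT cells with LPS.

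**Figure D4:**
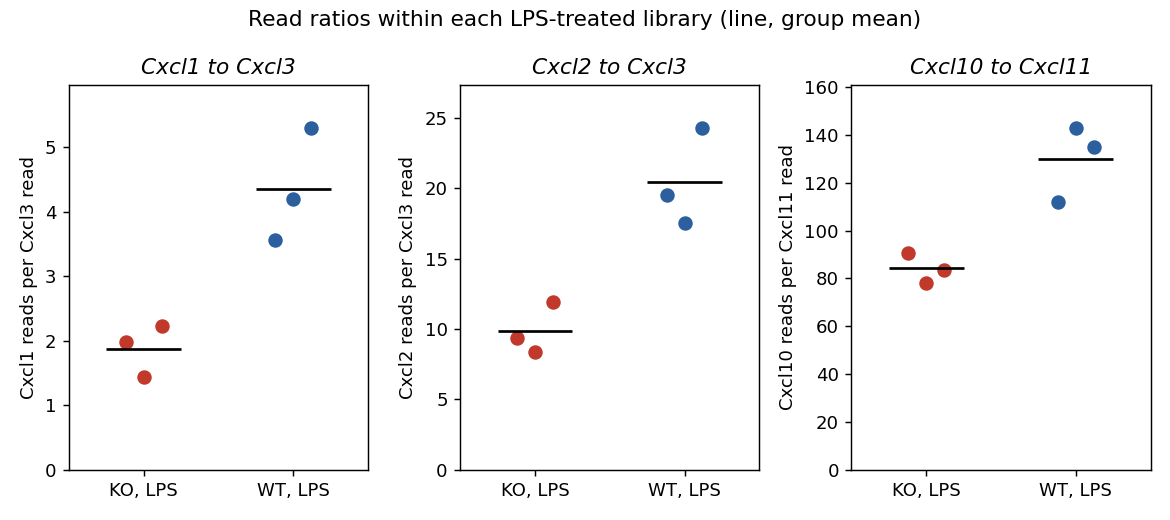
Reads of one chemokine per read of another within each LPS-treated library, with KO libraries in red, WT libraries in blue and a line at the group mean. In KO cells the 3 ratios lie at 1.43 to 2.22, 8.38 to 11.9 and 78.2 to 90.7, each below the WT libraries.

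Inside the groups, Cxcl1, Cxcl2 and Cxcl3 varied together, as did Cxcl10 and Cxcl11. Over the 6 LPS libraries, deviations from the group mean of log2 CPM correlated at 0.96 between Cxcl1 and Cxcl2, 0.88 between Cxcl1 and Cxcl3 and 0.96 between Cxcl10 and Cxcl11. Between Cxcl1 and Cxcl11 the value was -0.80. Ppbp went with Cxcl10 (0.95) and Cxcl11 (0.85), and stood at -0.61 with Cxcl1. These are descriptions over 6 libraries in 2 groups that share depth and scaling. Cxcl9 went with Cxcl16 (0.87) more than with Cxcl10 (0.51).

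Cxcl16 had a pattern by replicate number. Replicate 1 had the highest Cxcl16 level in all 4 groups, at 1.38, 1.60, 1.62 and 2.07 times the mean of its group mates in KO cells with LPS, WT cells with LPS, untreated KO cells and untreated WT cells. Cxcl9 was also highest in replicate 1 of each group. In untreated WT cells that rests on 11 reads over the group, with more reads in replicate 3 than in replicate 1. Replicate 1 was the highest of its group in all 4 groups in only 2.40% of 11984 genes. The smallest excess of replicate 1 over the next library, 1.37 times for Cxcl16, was not reached by any other gene. The labels name nothing that replicate 1 of KO and of WT cells share. Of the 50-base sequences of Cxcl16, 20% also lie in the overlapping gene Zmynd15, and the part of such reads in the Cxcl16 level was not tested.

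**Figure D5:**
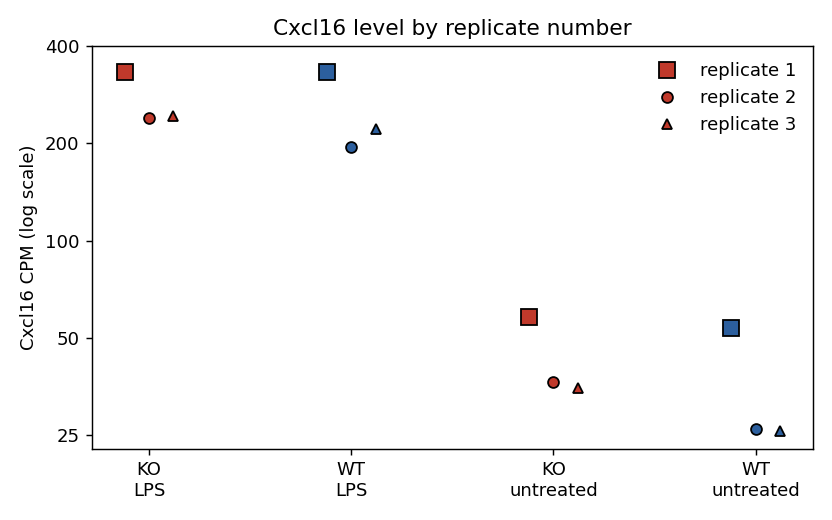
Cxcl16 level in CPM on a log axis by group, with squares, circles and triangles for replicates 1, 2 and 3. The square is the highest point of each group, at 333 CPM in both genotypes with LPS, 57.8 CPM in untreated KO cells and 53.7 CPM in untreated WT cells.

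Without LPS, 4 of the 8 chemokines had enough reads to be tested between genotypes and 0 passed, as 0 of all 11622 genes did (0.00%; edgeR, with 841 genes at an unadjusted p under 0.05 and 41 higher and 8 lower by DESeq2). The median over these 4 was 0.47 on the log2 scale, against 0 over all genes. Cxcl10 and Ppbp were apart between genotypes, both higher in the KO libraries, against 6.37% of genes apart in that direction. For Cxcl10 the log2 fold change was 0.62 ± 0.16 (adjusted p = 0.359), with reads of 128, 85 and 126 in KO cells, against 55, 77 and 59 in WT cells. For Ppbp it was 1.41 ± 0.37 (adjusted p = 0.359), with 2.11, 3.41 and 1.43 CPM in KO cells, against 0.967, 0.850 and 0.816 CPM in WT cells. Both passed once WT replicate 1 was left out, Cxcl10 at 0.66 (adjusted p = 0.0287) and Ppbp at 1.47 (adjusted p = 0.0427). Without the libraries numbered 2 they were 0.77 and 1.02, with an adjusted p of 0.992 for each. The fit without WT replicate 1 called 437 genes higher and 312 lower, so passing there was shared by many genes.

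Of the others, Cxcl2 differed by -0.25 ± 0.23 (edgeR adjusted p = 0.91) and Cxcl16 by 0.33 ± 0.32 (adjusted p = 0.913). With 1 library left out Cxcl2 ranged from -0.44 to -0.03 and Cxcl16 from 0.05, without KO replicate 1, to 0.77, without WT replicate 1, and neither passed. The remaining 4 were too low for the test. Cxcl9 had 16, 3 and 12 reads in untreated KO cells, against 4, 2 and 5 in untreated WT cells, a pooled CPM ratio of 2.41 (exact binomial 95% interval 1.18 to 5.30, counting error only). The groups overlap, and a fit with no filter on low counts gave 1.25 ± 0.61 on the log2 scale (edgeR adjusted p = 0.829). Cxcl1 had 14 reads over the untreated KO libraries and 22 over the WT ones, a pooled ratio of 0.543 (0.257 to 1.11). Cxcl3, with 7 reads in KO cells and 4 in WT cells, had an interval of 0.380 to 6.96, and Cxcl11 had 2 reads in each, so that no difference was detectable at this depth.

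The remaining CXC ligands were low or absent, apart from Pf4. Of 7 such genes, 2 could be tested and 0 were called between genotypes. Cxcl5, another CXCR2 ligand, had 8, 4 and 4 reads in KO cells with LPS, against 2, 3 and 1 in WT cells with LPS and 0 in all untreated libraries. Cxcl13, Cxcl15 and Cxcl17 were at 0 in all 12 libraries, which allows up to 0.186 to 0.444 CPM, depending on the library. Pf4 was called higher with LPS on the TMM scale, at 0.53 ± 0.12 in KO cells and 0.51 ± 0.12 in WT cells (edgeR adjusted p = 0.00153 and 0.00242), but stood at -0.08 and -0.04 on the RPKM scale, where it was not called.

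Apart from Cxcr4 in untreated cells, receptors of CXC ligands were scarce in the macrophages. Of 8 receptor genes, 2 could be tested, 0 were called between genotypes and both fell with LPS, against 30.9% of genes called lower in KO cells and 29.8% in WT cells. Cxcr4, the receptor of CXCL12, had 2.29, 3.03 and 1.87 CPM in KO cells with LPS, against 54.9, 68.2 and 62.1 CPM in untreated KO cells, a log2 fold change of -4.67 ± 0.26 (edgeR adjusted p = 1.55e-09). In WT cells it was -4.16 ± 0.26 (adjusted p = 6.34e-09). Cxcr3, the receptor of Cxcl9, Cxcl10 and Cxcl11, fell by 1.19 ± 0.20 in KO cells and by 1.10 ± 0.24 in WT cells on the log2 scale (edgeR adjusted p = 0.000136 and 0.00151). Between genotypes Cxcr4 differed by -0.37 ± 0.28 with LPS and 0.18 ± 0.20 untreated. Cxcr3 differed by 0.64 ± 0.31 with LPS (adjusted p = 0.398) and 0.76 ± 0.16 untreated (adjusted p = 0.326). Its KO libraries lay above its WT libraries in both conditions, at 5.40, 6.04 and 5.13 CPM in untreated KO cells, against 3.58, 3.26 and 3.12 CPM in untreated WT cells. Of all genes, 10.6% were apart in that direction with LPS and 6.37% untreated. Cxcr2, the receptor of the neutrophil attractants, had 0 to 11 reads per library, and Cxcr6, the receptor of Cxcl16, 0 to 2.

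Most genes of the signalling routes known to drive chemokine transcription, inhibitors of these routes included, responded to LPS in both genotypes. None was called between genotypes in either condition. With LPS, 30.3% of all genes were called higher and 30.9% lower in KO cells, and 27.6% higher and 29.8% lower in WT cells, which is the background to the counts that follow for each list. Of 19 genes of the NF-kB route, 16 rose and 2 fell with LPS in KO cells, and 15 rose and 2 fell in WT cells (14 and 3 in each genotype when scaled by RPKM). Those that fell were Tlr4, the LPS receptor, and the kinase gene Irak4. Nfkbiz, an inducible cofactor of NF-kB, rose by 6.63 ± 0.14 in KO cells and 6.60 ± 0.14 in WT cells on the log2 scale (edgeR adjusted p = 2.73e-13 and 4.07e-13). Nfkbia, the inhibitor IkB-alpha, rose by 4.87 ± 0.10 in KO cells and 4.54 ± 0.10 in WT cells, and Nfkb2 by 3.60 ± 0.11 in KO cells and 3.44 ± 0.11 in WT cells. Tnfaip3, the inhibitor A20, rose by 4.78 ± 0.14 in KO cells, and Nfkb1 by 2.72 ± 0.08 in WT cells. With LPS, Tnfaip3 differed between genotypes by 0.07 ± 0.08 (adjusted p = 0.759), and untreated Tlr4 by 0.06 ± 0.09 (adjusted p = 0.945). Untreated, the KO libraries lay below the WT libraries for Tnfaip3, at -0.46 ± 0.14 (edgeR adjusted p = 0.459), and for Nfkbia, at -0.35 ± 0.08 (adjusted p = 0.334). Both were picked from the list after their values were seen. The share of all genes apart in this direction is not given here, so no result about these genes is drawn from it.

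Of 20 genes of the interferon route, 16 rose with LPS in KO cells and 16 in WT cells, and 0 fell in either; scaled by RPKM, 4 were called lower in each genotype, with 16 higher in KO cells and 14 in WT cells. Socs1, a feedback inhibitor of cytokine signalling, rose by 7.75 ± 0.19 in KO cells and 7.80 ± 0.20 in WT cells (edgeR adjusted p = 8.02e-13 and 1.3e-12). Irf1, a factor that binds interferon response elements, rose by 5.10 ± 0.12 in KO cells and 5.56 ± 0.12 in WT cells. Irf8 rose by 3.14 ± 0.10 in KO cells and 3.24 ± 0.10 in WT cells, and the kinase gene Ikbke by 2.31 ± 0.10 in KO cells and 2.32 ± 0.10 in WT cells. Irf1 differed between genotypes by 0.01 ± 0.08 with LPS (adjusted p = 0.979), and Jak1 by -0.05 ± 0.11 untreated (adjusted p = 0.964). Untreated, Irf1 had 67.6, 54.4 and 51.2 CPM in KO cells, against 44.1, 40.5 and 40.2 CPM in WT cells. The groups were apart, at 0.50 ± 0.12 (edgeR adjusted p = 0.343), against 6.37% of genes apart in that direction untreated.

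Of 10 genes for factors that act on chemokine mRNA decay, 0 were called between genotypes. With LPS 7 rose and 3 fell in KO cells, and in WT cells 6 rose and 2 fell, whereas scaled by RPKM 3 rose in each genotype, with 3 lower in KO cells and 4 in WT cells. Zfp36, which codes for tristetraprolin, a protein that binds AU-rich sites like those of Cxcl1 and Cxcl2 shown earlier, rose by 3.16 ± 0.15 in KO cells and 3.17 ± 0.15 in WT cells (edgeR adjusted p = 3.47e-10 and 3.95e-10). Its relative Zfp36l2 changed by -2.86 ± 0.12 in KO cells and -2.45 ± 0.12 in WT cells and was called lower in both. Zc3h12a, the RNase Regnase-1, rose by 3.20 ± 0.09 in KO cells and 3.31 ± 0.10 in WT cells, and Zc3h12c by 2.60 ± 0.16 in KO cells and 2.30 ± 0.16 in WT cells. Zfp36 differed between genotypes by -0.05 ± 0.13 with LPS (adjusted p = 0.895), and Zfp36l2 by 0.06 ± 0.10 untreated (adjusted p = 0.954).

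Of 3 genes for shedding of membrane proteins, 2 rose with LPS in each genotype on either scale, while Adam10 was called lower on the RPKM scale. Rhbdf2, which brings ADAM17 to the cell surface, rose by 2.84 ± 0.11 in KO cells and 2.68 ± 0.11 in WT cells, and Adam17 by 1.12 ± 0.08 in KO cells and 1.0 ± 0.08 in WT cells (edgeR adjusted p between 5.38e-11 and 6.2e-08). Between genotypes Adam17 differed by 0.05 ± 0.08 with LPS and -0.04 ± 0.07 untreated.

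Genes next to the chromosome 5 chemokines were mostly silent. Of 12 neighbours, 5 could be tested and 0 were called between genotypes. With LPS, 5 were called higher in KO cells and 4 in WT cells, against 30.3% of all genes in KO cells and 27.6% in WT cells. The nucleoporin gene Nup54 stood at 1.50 ± 0.10 in KO cells and 1.59 ± 0.10 in WT cells on the log2 scale, and Sdad1 at 0.84 ± 0.09 in KO cells and 0.94 ± 0.09 in WT cells. Naaa, a lysosomal amidase gene, stood at 1.12 ± 0.14 in KO cells and 0.94 ± 0.14 in WT cells. Scarb2, called higher at 0.29 ± 0.11 in KO cells and 0.31 ± 0.11 in WT cells, was called lower on the RPKM scale, at -0.30 in KO cells and -0.24 in WT cells. Mthfd2l, called higher in KO cells at 0.68 ± 0.21, stood at 0.10 there. Scarb2 differed between genotypes by -0.05 ± 0.09 with LPS and -0.01 ± 0.11 untreated. Naaa had 41.1 to 45.0 CPM in KO cells with LPS, against 24.9 to 34.3 CPM in WT cells with LPS. Its difference was 0.62 ± 0.13 (edgeR adjusted p = 0.0511) with LPS and 0.46 ± 0.13 untreated (adjusted p = 0.426), and the genotypes did not overlap in either condition. KO libraries lay above all WT libraries in 10.6% of genes with LPS and 6.37% untreated.

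The genes that carry the kB element of Cxcl1, Cxcl2 and Cxcl3 did not move as one. Of the 28 genes with it, 12 that are not among the chemokines were tested. With LPS 5 of them rose and 2 fell in KO cells, and 4 rose and 2 fell in WT cells, next to 30.3% of all genes called higher in KO cells and 27.6% in WT cells. Their median log2 fold change was 0.02 in KO cells and 0.06 in WT cells. Nfkbia and Gbp5, an interferon-induced GTPase gene, were among those that rose in both genotypes, and Il16 among those that fell.

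The genes whose log2 CPM over the 12 libraries was most like each chemokine are given as a description; all of these values share the contrast of 6 LPS with 6 untreated libraries. For Cxcl2 they were Ccl3 (r = 0.9968), Nlrp3 (0.9963) and Tnf (0.9960). For Cxcl9 they were Nod2 (0.9986), Tgm2 (0.9977) and Ccl5 (0.9974), and for Cxcl10 Cd69 (0.9998), Csf1 (0.9994) and Socs3 (0.9994). Those of Cxcl1 included Capn1 (0.9929) and Tpm3 (0.9922), and those of Cxcl3 Usp18 (0.9936), Tapbpl (0.9929) and Nlrc5 (0.9925). Cxcl11 was followed by Marchf5 (0.9984), Adgrg6 (0.9984) and Itgav (0.9983), and Cxcl16 by Mefv (0.9907), Gm4951 (0.9899) and Slc37a3 (0.9875). Ppbp, with no call for LPS, reached only 0.9045 with Man2b1, 0.9043 with Csf1r and 0.9039 with Tgfbi.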

How the data were processed

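The deposited files hold whole-number counts and RPKM values for 35745 RefSeq transcripts, with untreated and LPS libraries in separate tables. The authors' deposited counts are not normalized; the deposited RPKM values were made by the authors from them per transcript length and library. STAR 2.5.2b, SAMtools 1.3.1 and the build mm10 appear in the submitters' processing notes. How reads were counted, and whether by strand, is not given in the sources used here. Reads that fit several isoforms or overlapping genes may be counted more than once. Each gene was taken as its transcript with the highest total count (24445 genes); 117 unnamed transcripts (0.259% to 0.738% of counts) were left out.

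Genes passing filterByExpr were scaled by TMM and tested with edgeR 4.0.16 (quasi-likelihood F test, robust; R 4.3.3) with Benjamini-Hochberg adjustment over all genes and a threshold of 0.05. Genotypes were compared on the 6 libraries of a condition, LPS responses and their difference on all 12. Alternatives used limma 3.58.1 (RPKM with a pseudocount of 0.1 or 1) and DESeq2 1.42.0. Values after ± are standard errors, taken from the F statistic. Those in the 12-library fits share the spread of all groups. For LPS responses of genes with few untreated reads they are narrower than counting error allows. Among these are Cxcl3, Cxcl11 and, in WT cells, Cxcl9. Levels are CPM on a TMM scale common to all libraries. An exact permutation test of 3 libraries against 3 has 0.1 as its smallest two-sided p and was left out. The fits were tested on simulated counts with known fold changes.

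The members and gene lists were chosen with earlier results of these data known. All members were named; from each list, up to 4 called genes with the smallest p, or the most highly expressed gene where none was called; and the 3 genes most correlated with each member among genes whose mean log2 CPM reached 2 (1 of those for Cxcl1 is not reported here). Gbp5, Il16, Cxcl5 and the differences between genotypes of Naaa, Cxcr3, Irf1, Tnfaip3 and Nfkbia were added after their values were seen. Deviations from the group mean were correlated between LPS and untreated libraries of 1 genotype. In WT cells r was 0.53, 0.53 and 0.27 for the same number, against a highest value of -0.30, 0.10 and -0.06 for another number. In KO cells it was 0.24, 0.44 and 0.19, against 0.13, -0.26 and 0.14. The gap was small for KO replicates 1 and 3, and only the libraries numbered 2 carried Ddx3y. These values do not settle whether the numbers pair KO libraries. The labels state no pairing, and the main fits use none. A 50-base sequence was shared by Cxcl2 and Cxcl3 at 61 positions (5.75% and 6.31% of their transcripts) and by Cxcl10 and Art3 at 84 (8.04%), so a small part of their reads cannot be told apart.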

Additional observations from a re-analysis of the deposited data

How the results depend on the processing

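The 7 chemokine calls for LPS held in both genotypes under all 24 alternatives run, those with the replicate block within genotype, chosen after seeing the data, included. Between genotypes the calls depended on the settings. With LPS, 2 chemokines were called higher; the count was 0 on the deposited RPKM with a pseudocount of 0.1, 0 with a replicate block across genotypes, 1 without replicate 2 of every group, 4 without replicate 1 of both WT groups and 0 to 4 when 1 library was left out. Untreated, the count was 0, but 2 without replicate 1 of both WT groups and 0 to 2 when 1 library was left out. The number of chemokines called lower with LPS in WT cells was 1 on the RPKM with a pseudocount of 0.1 (Ppbp). The replicate block changed no other member call. Same-numbered libraries were not taken to pair the genotypes: r was -0.02, 0.20 and 0.11 for replicates 1, 2 and 3 with LPS and 0.06, 0.20 and 0.24 untreated. Replicates 2 and 3 correlated best with their own number and replicate 1 with another.

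Over all genes, the main counts with LPS, 113 higher and 14 lower, became 212 and 64 with no filter, 201 and 64 by DESeq2, 63 and 2 or 78 and 3 on RPKM, 44 and 3 with the block, 16 and 1 without replicate 2, 359 and 186 without replicate 1 of both WT groups, and 27 lower with all 12 libraries; leaving out 1 library gave 16 to 359 higher and 1 to 186 lower. Untreated, the counts of 0 became 8 and 1 with no filter, 41 and 8 by DESeq2, 23 and 4 with all 12 libraries, and 437 and 312 without WT replicate 1. The interaction gave 17 and 7 without replicate 1 of both WT groups, and 1 and 1 on RPKM with a pseudocount of 1. For LPS, RPKM with a pseudocount of 1 gave 1701 higher and 7462 lower in KO cells and 1669 and 7379 in WT cells.

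Of the log2 fold changes, these turned. With LPS, KO against WT, Cxcl1 ranged from -0.46 to 0.02 with 1 library left out (0.02 without KO replicate 2) and was 0.12 without replicate 2 of every group; Cxcl2 was 0.16 there and ranged from -0.32 to 0.15 (0.15 without KO replicate 2, 0.01 without WT replicate 3); Cxcl16 ranged from -0.05 to 0.39 (-0.05 without KO replicate 1, -0.04 without WT replicate 2). For LPS in KO cells, Ppbp was -0.22 and -0.17 on the RPKM scales. In the interaction, Cxcl1 was -0.02 and Cxcl9 0.08 on RPKM with a pseudocount of 1; with 1 library left out Cxcl2 ranged from -0.06 to 0.43, Cxcl16 from -0.65 to 0.08 and Cxcl3 from -0.77 to 0.94; and Cxcl3 was -0.92 without replicate 2 of every group. The cause was not tested. Depth limits Cxcl3, Cxcl11, Cxcl9 and Cxcl1 untreated and Ppbp throughout.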
